A study of Mus musculus with 5 samples.

Results

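miR-193b and miR-365 are small RNAs encoded by neighbouring genes, and they were followed here through injury and repair of a mouse leg muscle. They are 2 of the 217 miRNAs on the panel, which held 222 assays with its 5 control RNAs. The pair was chosen by name for its large decreases soon after injury, so its changes from baseline are described without a test. Relative to the median miRNA, miR-193b was 5.31-fold below baseline at day 1, 19.6-fold below at day 3 and 2.22-fold below at day 21. miR-365 was 11.1-fold, 12.2-fold and 2.86-fold below baseline on the same days. Between days 7 and 21 miR-193b rose 2.91-fold on that scale, where 38.4% of all miRNAs tested were called higher. Without a normalizer its rise did not pass the test. The change of miR-365 did not pass on that scale, and the changes of the pair were not shown to differ.

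The tissue was the tibialis anterior of C57BL/6J male mice aged 4 to 6 months. The injured groups received cardiotoxin (2.5 µM, 100 µl), a venom peptide that destroys muscle fibres and spares many of their stem cells, in both hind limbs, and the baseline group received no injection. Muscles of days 1, 3, 4, 7 and 21 were each set against the same baseline, with 4 mice per time point by the labels. The files hold 4 values per assay and group and do not say which mouse each came from. They were taken as the 4 mice, and where some are repeat reactions the p-values cover technical spread only. RNA came from whole muscle, so fewer cells of a type and less RNA per cell cannot be told apart.

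A miRNA guides a protein complex to messenger RNAs through its seed, the bases from position 2 to 8, and lowers the output of those messengers. miR-193b and miR-365 are known from brown fat, whose precursors share a developmental origin with skeletal muscle. In brown fat precursors the pair was reported to favour the fat programme and to restrain muscle genes, through Runx1t1 and, for miR-193b, the muscle-promoting genes Cdon and Igfbp5. Mice lacking the pair were later reported to form working brown fat.

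The mature sequences are shown because they decide which genes each assay can report, with the seed in capitals, 5′ to 3′, from RefSeq (GRCm38.p6). miR-193 is the older name of miR-193a, the seed relative of miR-193b.
miR-193b-3p: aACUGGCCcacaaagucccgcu
miR-193a-3p: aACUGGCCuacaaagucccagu
miR-365-3p: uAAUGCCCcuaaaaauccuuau
The seed ACUGGCC occurs in 2 mouse mature miRNAs of the table, miR-193b-3p and miR-193a-3p, and both were measured. Over 22 bases they are identical at 19 and differ by C9U, G20A and C21G, counted from 1 at the 5′ end with the base of miR-193b-3p first. The seed AAUGCCC occurs in 1 mature miRNA, miR-365-3p. The assays carry the old names without an arm, so the match to the 3p arms is by name. miR-193b and miR-365 share no seed.

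Mature miR-193b-3p lies on the plus strand at chr16:13449570-13449591 (GRCm38.p6), and miR-365-3p from the gene Mir365-1 lies on the same strand at chr16:13453895-13453916. Between the hairpins of Mir193b and Mir365-1 are 4238 bases. The annotation places both within the long noncoding RNA gene Gm32817, whose start site lies 1571 bases before the Mir193b hairpin on the same strand. Another annotated gene, Gm53058, also overlaps both hairpins. A like arrangement is found on chromosome 11, with miR-193a-3p at chr11:79712009-79712030 and miR-365-3p from Mir365-2 at chr11:79726467-79726488, 14365 bases apart from hairpin to hairpin. Because the hairpins below give the same mature miR-365 (capitals), its assay cannot tell Mir365-1 from Mir365-2.
Mir365-1: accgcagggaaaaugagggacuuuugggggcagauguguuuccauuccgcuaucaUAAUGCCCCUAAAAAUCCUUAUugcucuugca
Mir365-2: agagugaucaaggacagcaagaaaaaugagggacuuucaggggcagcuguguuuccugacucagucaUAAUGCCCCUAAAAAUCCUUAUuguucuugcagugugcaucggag
The miR-365 values below are therefore the sum of both loci, whereas miR-193b and miR-193a have an assay each.

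Each level is a Ct from TaqMan RT-PCR, the PCR cycle at which product becomes detectable, so 1 cycle more means about 2-fold less RNA. Ct values of different assays are not comparable as amounts. The control RNAs disagreed: U6, the control marked in the files, had a mean Ct of 14.8 at baseline and 12.5 at day 1, while Y1 had 20.3 and 22.7. Means of the same groups were 14.5 and 14.3 for snoRNA202 and 20.3 and 18.5 for snoRNA135, both small nucleolar RNAs. For U87, which served as no normalizer here, they were 21.4 and 20.6. Changes are therefore given relative to the median miRNA, the median change from baseline of 205 miRNAs under Ct 35 in every value, with U6 beside it. Relative to U6, log2 changes shifted by -1.91, -1.12, -0.67, -0.09 and -0.12 on days 1, 3, 4, 7 and 21. The muscle-fibre miRNAs miR-133a and miR-1 had baseline Ct means of 9.35 and 12.9. Those of miR-133b, miR-486 and miR-499 were 14.96, 26.45 and 27.46. As amounts these are not comparable, so no cell type is read from them.

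The Ct of miR-193b in the 4 baseline values was 16.91, 16.95, 16.80 and 16.88. At day 1 it was 19.29, 19.05, 18.36 and 18.94, and at day 3 it was 20.87, 19.85, 20.24 and 20.93. Every value of these days lay above every baseline value, and day 3 lay wholly above day 1. At day 4 the Ct was 19.97, 19.27, 20.77 and 20.44, and at day 7 it was 17.96, 18.39, 18.32 and 18.85. At day 21 it was 17.97, 17.87, 17.84 and 17.86. The day 21 values were as tightly grouped as those of baseline and still about 1 cycle above them, without overlap.

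For miR-365 the 4 baseline Ct values were 18.16, 18.28, 17.60 and 17.49. At day 1 they were 20.70, 21.60, 20.42 and 21.15, and at day 3 they were 20.24, 20.81, 20.75 and 21.33. Unlike those of miR-193b, the ranges of days 1 and 3 overlapped. At day 4 the Ct was 19.16, 19.58, 19.59 and 19.94, at day 7 it was 18.98, 18.16, 18.24 and 19.16, and at day 21 it was 18.69, 19.39, 19.10 and 19.82. Days 1, 3, 4 and 21 lay wholly above baseline in raw Ct, whereas 2 of the 4 values of day 7 lay within its range.

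Put relative to the median miRNA, miR-193b changed from baseline by -2.41 ± 0.23 on the log2 scale at day 1 (SD, n = 4, here and for the other levels). On days 3, 4, 7 and 21 the values were -4.29 ± 0.56, -4.17 ± 0.63, -2.69 ± 0.35 and -1.15 ± 0.12. From the highest to the lowest level the groups ran baseline, day 21, day 1, day 7, day 4 and day 3. Day 1 overlapped day 7 and day 4 overlapped day 3, while the other neighbours in that order had separate ranges. Relative to U6 the day 1, 3, 4, 7 and 21 changes were -4.32, -5.42, -4.84, -2.78 and -1.27. Of the scales used, only Y1 did not show the decreases of days 1 and 21. Relative to Y1, miR-193b was 0.32 higher than baseline at day 1 and at -0.0775 at day 21. On these days it was at -2.27 and -1.16 relative to snoRNA202 and at -3.76 and -2.29 relative to snoRNA135. On raw Ct it was also below baseline on both days. Y1 itself stood at -2.73 and -1.07 relative to the median miRNA. Which control is the better normalizer was not tested.

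miR-365 changed by -3.47 ± 0.45 at day 1, -3.61 ± 0.44 at day 3 and -2.63 ± 0.35 at day 4. Later it stood at -1.95 ± 0.61 at day 7 and -1.52 ± 0.42 at day 21. The order from the highest level was baseline, day 21, day 7, day 4, day 1 and day 3, and each group after day 21 overlapped the neighbour above it. Baseline alone was separate from the next group, day 21. Relative to U6 the changes were -5.38, -4.73, -3.30, -2.04 and -1.64 on days 1, 3, 4, 7 and 21, with the lowest level at day 1 in place of day 3. The lowest group was also day 1 on raw Ct and relative to snoRNA202, a small nucleolar RNA (-3.33 at day 1 and -3.31 at day 3). Relative to Y1 the day 21 change was -0.45.

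**Figure D1:**
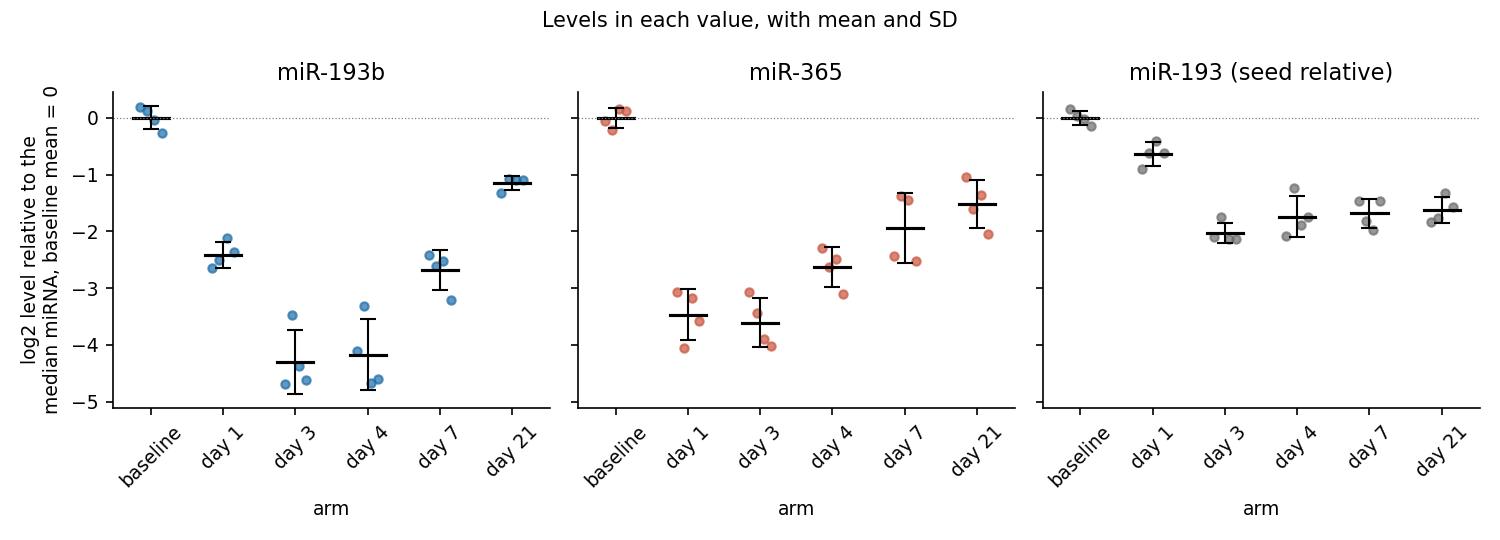
Log2 level of miR-193b, miR-365 and miR-193 relative to the median miRNA, with the baseline mean at 0, by group. Points are the 4 values, the long bar is the mean and the whiskers are 1 SD: miR-193b is lowest at days 3 and 4, miR-365 at days 1 and 3, and every value after injury lies below the baseline values of its miRNA.

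Among all miRNAs, miR-193b had the 14th lowest change of 211 tested on day 1, the 7th of 212 on day 3 and the 4th of 213 on day 4. It was 18th and 32nd of 213 on days 7 and 21. miR-365 ranked 4th, 12th, 21st, 34th and 17th on the same days. The pair was picked for early decreases, so the early ranks describe the choice. At an adjusted p under 0.05 in limma, 38.9%, 41%, 41.3%, 42.3% and 37.6% of miRNAs were below baseline on days 1, 3, 4, 7 and 21 on the median-miRNA scale, and 41.2%, 38.7%, 43.2%, 40.4% and 35.7% were above it. On the U6 scale 65.9%, 52.8%, 43.2%, 36.2% and 19.2% were below and 9%, 19.3%, 25.4%, 31.5% and 22.1% above. Both members were on the lower side at all 5 time points, from which nothing is read because the rule used these contrasts.

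**Figure D2:**
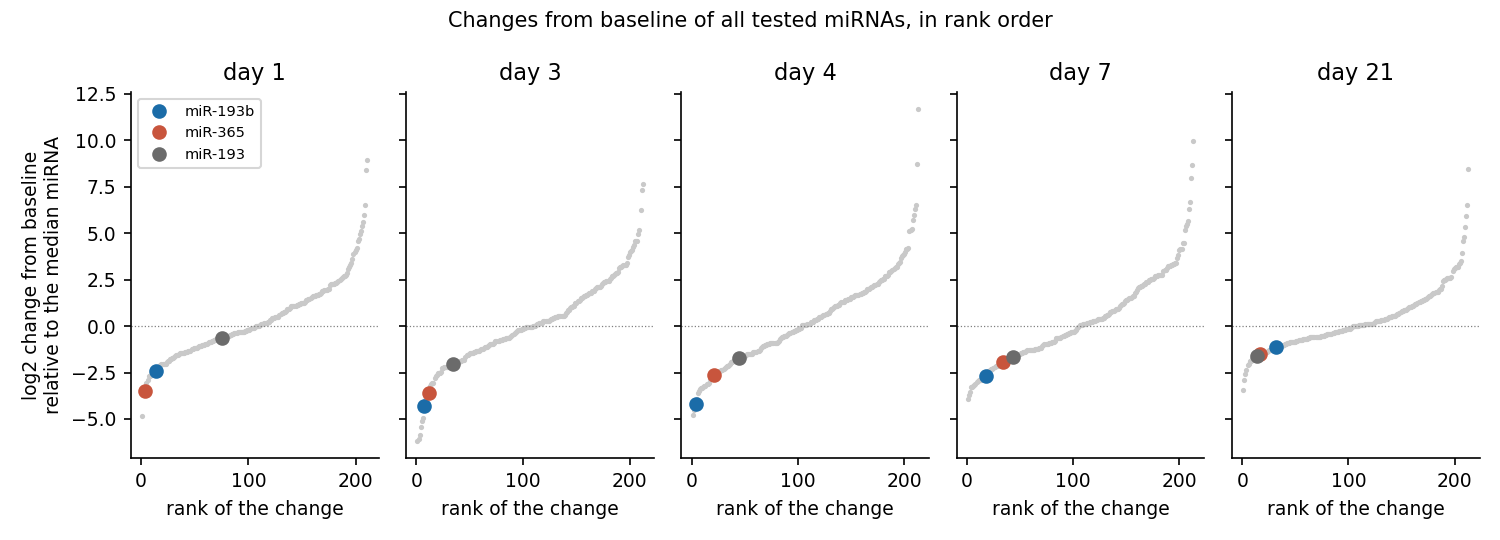
Log2 change from baseline relative to the median miRNA (vertical axis) against its rank among all tested miRNAs (horizontal axis), 1 panel per day, with each grey point a miRNA. miR-365 ranks 4th from the lowest at day 1, miR-193b ranks 4th at day 4, and both lie nearer to 0 at day 21.

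The interval from day 7 to day 21 leaves out both the baseline and the early days, and it was tested. miR-193b rose by 1.54 ± 0.27 on the log2 scale (SE, 95% interval 0.98 to 2.10), with an adjusted p of 4.11e-05 in limma, and all 4 values of day 21 lay above all 4 of day 7. Over that interval 38.4% of the 216 miRNAs tested were higher at day 21 and 32.4% were lower. Relative to U6 the change was 1.51, with a limma adjusted p of 0.00996, where 19.9% of miRNAs were higher and 14.4% lower. On raw Ct, with no normalizer, it was 0.49 and did not pass (limma adjusted p = 0.112).

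miR-365 differed by 0.43 ± 0.29 (SE) between the same days, which did not pass (limma adjusted p = 0.193). Its 95% interval ran from -0.18 to 1.03, which included no change and overlapped that of miR-193b (0.98 to 2.10). The ranges of days 7 and 21 overlapped. Relative to U6 the difference was 0.40 (adjusted p = 0.618), and relative to snoRNA202 it turned to -0.24. Leaving out each value in turn moved it between 0.24 and 0.62.

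**Figure D3:**
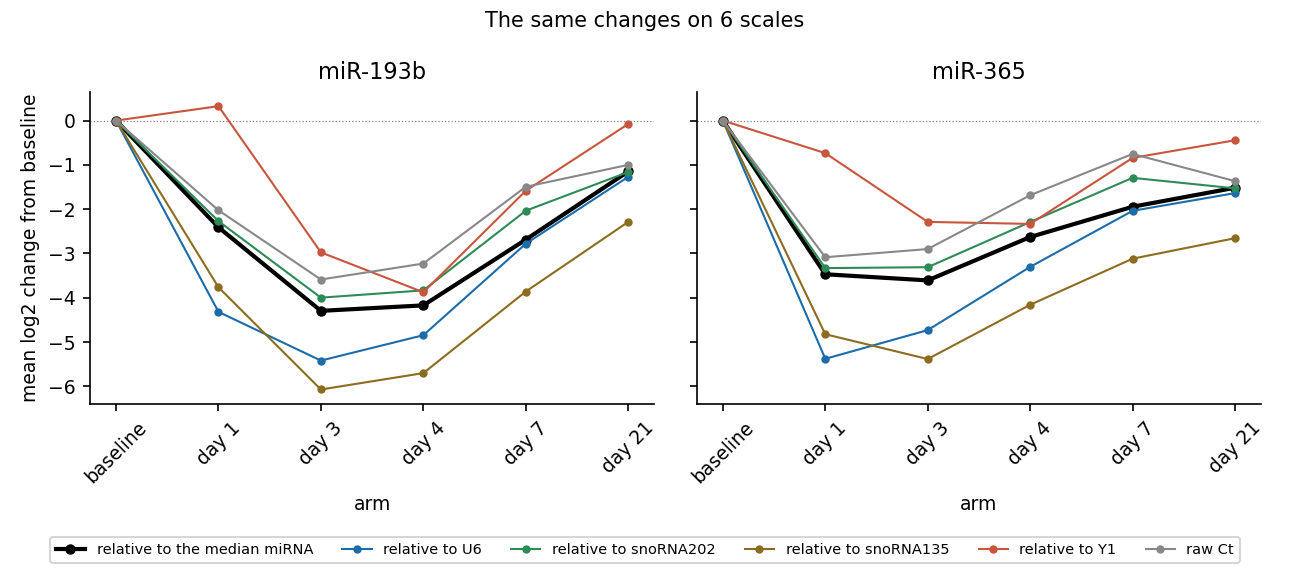
Mean log2 change from baseline (vertical axis) of miR-193b and miR-365 by group, with 1 line for each normalizer and 1 for raw Ct. Most lines lie well below 0, and relative to Y1 miR-193b is at 0.32 on day 1 and -0.0775 on day 21 and miR-365 at -0.45 on day 21.

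The members were also set directly against each other, a comparison that needs no normalizer. The measure is Ct of miR-193b minus Ct of miR-365 in the same value, and a higher number means more miR-365 relative to miR-193b than before. It assumes that a value number is the same RNA in every assay, which the files do not state. The spreads, ranges and p-values relative to the median miRNA or a control RNA rest on the same assumption. At baseline the 4 differences were -1.25, -1.33, -0.80 and -0.61 cycles. At day 1 they were -1.41, -2.55, -2.06 and -2.21, all below baseline. Their mean had moved by -1.06 ± 0.30 cycles (SE, here and for the later shifts). On day 1 the mean change of miR-365 was thus the larger decrease.

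On day 4 miR-193b had the larger mean decrease. The differences were 0.81, -0.31, 1.18 and 0.50 cycles, all above baseline, with a shift of 1.54 ± 0.36 cycles. Day 3 stood between, at 0.63, -0.96, -0.51 and -0.40, with 3 of 4 values above baseline. The changes from baseline were part of the choice of the pair, so these shifts carry no p.

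At day 7 the differences were -1.02, 0.23, 0.08 and -0.31 cycles, a shift of 0.74 ± 0.33 from baseline. At day 21 they were -0.72, -1.52, -1.26 and -1.96 cycles, a shift of -0.37 ± 0.31 that ran from -0.58 to -0.17 when each value was left out in turn. Both days overlapped baseline. From day 7 to day 21 the difference moved by -1.11 ± 0.38 cycles, with 3 of 4 values of day 21 below all of day 7 (exact permutation test, two-sided, p = 0.0571, where the smallest possible p with 4 against 4 is 0.0286). That comparison was added after the values were seen. So the rise of miR-193b and the smaller change of miR-365 were not shown to differ.

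**Figure D4:**
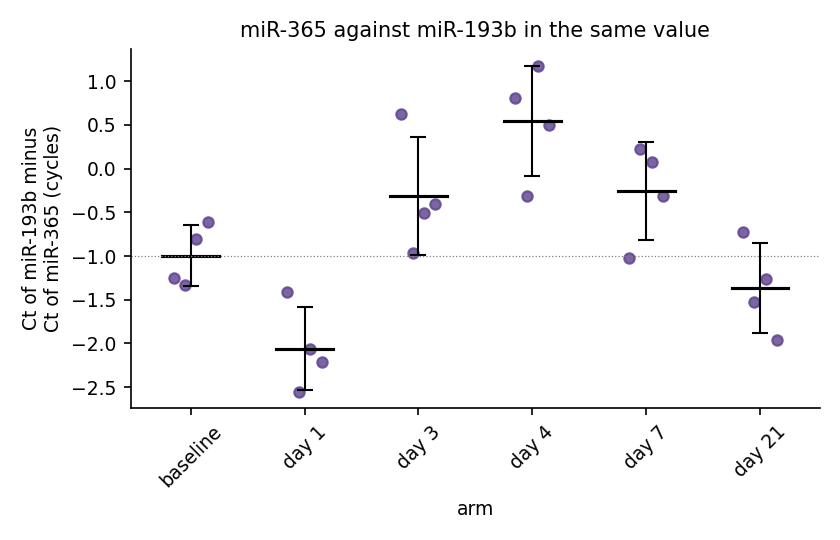
Ct of miR-193b minus Ct of miR-365 in the same value (cycles, vertical axis) by group, with points for the 4 values, the mean as a long bar and 1 SD as whiskers; the dotted line is the baseline mean. All day 1 points lie below the baseline points and all day 4 points above them.

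miR-193, the seed relative from the chromosome 11 locus, was not used to choose the pair. Its baseline Ct was 25.42, 25.51, 25.26 and 25.24, and at day 1 it was 26.02, 25.64, 25.13 and 25.66, which overlapped. At day 3 the Ct was 26.74, 26.60, 26.47 and 26.91, and at day 21 it was 26.95, 27.03, 26.53 and 26.81, both wholly above baseline. Relative to the median miRNA it fell to -0.64 ± 0.17 at day 1 (SE, limma adjusted p = 0.00187) and to -2.03 at day 3 (adjusted p = 4.00e-10). At day 21 it was still lower, at -1.62 (adjusted p = 3.77e-08), a call that was lost relative to Y1 (-0.55, adjusted p = 0.101).

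The later course depended on the scale. Where miR-193b went from -4.17 at day 4 to -1.15 at day 21, miR-193 stood at -1.74, -1.69 and -1.62 on days 4, 7 and 21 relative to the median miRNA, with overlapping ranges. Between days 7 and 21 it changed by 0.06 (limma adjusted p = 0.756, 95% interval -0.29 to 0.42). The same difference was -0.60 relative to snoRNA202 (adjusted p = 0.0140) and -0.98 on raw Ct (adjusted p = 0.000285), both past the threshold. The day 1 decrease also depended on it, being -2.55 relative to U6 and 2.09 higher than baseline relative to Y1. Whether the seed relatives differ in their changes was not tested.

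The other miRNAs linked to brown and beige fat give the setting of the pair. Of 21 listed, miR-193b and miR-365 left out, 18 were measured: 9 reported to promote and 9 reported to inhibit the fat programme. The words rose and fell are kept for members past an adjusted p of 0.05 in limma on both scales, the median miRNA and U6. At day 1, 0 of 18 rose and 12 fell, where 9% of all miRNAs rose and 38.9% fell by the same rule. At day 3, 2 rose and 11 fell (19.3% and 41% of all), and at day 4, 1 rose and 12 fell (25.4% and 41.3%). The counts were 1 and 9 at day 7 (31.5% and 35.7%) and 0 and 4 at day 21 (22.1% and 19.2%). The list's median change relative to the median miRNA was -0.92 at day 1, -1.01 at day 3 and -0.34 at day 21, beside medians of -0.04, -0.05 and -0.00 over all miRNAs tested. Relative to Y1 the direction turned at day 1, with 13 of the 18 higher and 0 lower, and at day 21, with 10 higher and 0 lower. Compared with the median-miRNA scale, Y1 adds 2.73 at day 1 and 1.07 at day 21 to every miRNA. The share of all miRNAs relative to Y1 is not given here, so the turn is not read as a trait of the list.

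Among the promoting miRNAs, 7 of 9 fell at day 1 and 6 of 9 fell at each of days 3, 4 and 7. miR-30b and miR-30c, reported to aid thermogenic fat by acting on the corepressor RIP140, fell at day 3, to -3.21 and -4.00. miR-26a and miR-26b, reported to raise the brown character of human fat cells, fell to -2.78 and -1.91, and miR-328 fell to -3.07. miR-182 went against them, with 3.17 ± 0.27 at day 3 and 3.42 ± 0.27 at day 4, and was the promoting member that rose. For single miRNAs of the fat list the ± is the limma SE. miR-455 fell at day 1, to -2.03 ± 0.50, and stood at 1.40 ± 0.50 at day 21, which passed relative to the median miRNA (limma adjusted p = 0.0169) and not relative to U6 (0.175).

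Of the 9 inhibiting miRNAs, 5 fell on days 1 and 3, 6 on day 4, 3 on day 7 and 2 on day 21, and 1 rose, on day 3. miR-133a and miR-133b, which are muscle miRNAs that repress the brown fat regulator Prdm16, fell at day 3, to -5.87 and -4.94. miR-155 fell to -1.37 and miR-27b to -0.68 that day, against -0.05 and 0.64 relative to Y1. miR-34a was the one that rose, by 2.16 ± 0.13 at day 3, and stood at 0.07 at day 21. Relative to U6 its day 3 change was 1.035 and passed narrowly (limma adjusted p = 0.0491). miR-106b and miR-93, from a cluster linked to cell division, were at 1.77 and 1.45 at day 1 relative to the median miRNA and at -0.14 and -0.46 relative to U6, so their direction rested on the scale.

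From day 7 to day 21, 6 of the 18 rose and 1 fell, against 19.4% and 14.4% of all miRNAs by the same rule. Of the 6, 5 were promoting members: miR-30c at 1.99, miR-30b at 1.79, miR-26a at 1.41, miR-26b at 1.37 and miR-203 at 1.05. Relative to U6, miR-26b and miR-203 passed narrowly (limma adjusted p = 0.0491 and 0.0467). The inhibiting member was miR-133a at 1.84, and the one that fell was miR-182 at -1.33. On raw Ct 2 of the 18 were higher and 8 lower. There the change of every miRNA differs by -1.04 from that on the median-miRNA scale, and the share of all miRNAs is not given. The list median was 0.68 relative to the median miRNA and that of all miRNAs 0.05. miR-193b at 1.54 lay within the range of those that rose.

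Most of the mature muscle-fibre miRNAs measured fell at each time point. Of 8 listed, miR-1, miR-133a, miR-133b, miR-499 and miR-486 were measured, and all 5 fell on days 1 and 4, 4 of the 4 tested fell on day 3, and 4 of 5 fell on days 7 and 21. By the same rule 38.9%, 41%, 41.3%, 35.7% and 19.2% of all miRNAs fell on days 1, 3, 4, 7 and 21. The list level below sums the log2 changes of its markers, each from its own baseline mean on the median-miRNA scale, and divides by their number, so that every assay counts equally. For the muscle list it ran from -0.26 to 0.17 over the baseline values and from -4.63 to -2.67 on day 1. On days 3 and 4 it ran from -6.98 to -5.58 and from -3.90 to -3.03, and on days 7 and 21 from -2.66 to -1.87 and from -1.46 to -0.93. From day 3 to day 4 the median change of the 4 tested markers was 2.33, against 0.12 for miR-193b and 0.98 for miR-365. None of these markers reached cycle 40. Relative to Y1 at day 1, miR-1 stood at -2.11 and passed (limma adjusted p = 1.69e-05). miR-486 at -0.90, miR-133a at -0.32, miR-133b at -0.18 and miR-499 at 0.22 did not pass on that scale.

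Markers of other cells moved over the same days, and within several lists they moved in opposite directions. Of 6 myeloid and lymphoid markers, 3 rose and 0 fell at day 1, where 9% of all miRNAs rose and 38.9% fell by the same rule. At day 7, 2 rose and 2 fell, near the shares of all miRNAs (31.5% and 35.7%). The list level ran from 2.90 to 3.24 at day 1 and from 0.17 to 0.48 at day 7. At day 7 miR-142-3p was at 2.19 and miR-150, a lymphocyte miRNA, at -2.10. Both endothelial markers fell at days 3, 4 and 7, as did 41%, 41.3% and 35.7% of all miRNAs. Their list level ran from -0.06 to 0.26 at day 1 and from -2.96 to -2.39 at day 4.

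Of 6 fibroblast and smooth muscle markers, 0 rose and 3 fell at day 1 (9% and 38.9% of all miRNAs). At day 7, 3 rose and 2 fell (31.5% and 35.7% of all). On day 7 miR-21 was at 1.64 and miR-145, a smooth muscle miRNA, at -3.19, and the list level ran from -0.07 to 0.15. The 2 satellite cell markers parted at day 3, with miR-31 at 6.22 and miR-489 at -5.42. At day 21 miR-31 was at 6.50 and miR-489 at 0.02. Of 5 epithelial markers, 4 were tested and all 4 rose at day 1 (9% of all miRNAs). At day 21, 0 rose and 1 fell (22.1% and 19.2% of all), with 2 wells at cycle 40. The red cell marker miR-451 was at 1.58 at day 1 and -2.09 at day 7. The part of these cell types in the levels of miR-193b and miR-365 was not tested.

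The assays most like each member were found by the Pearson correlation of the 6 group means over 209 other miRNAs, given as a description. The means share their libraries, their baseline and their scaling. For miR-193b they were miR-26a (0.983), miR-133a (0.983), miR-491 (0.981), miR-345-5p (0.981) and miR-30c (0.971). By Euclidean distance between the changes, miR-491 came closest (0.909), with -2.47, -3.88, -3.47, -2.91 and -1.47 on days 1, 3, 4, 7 and 21, followed by miR-30c (1.01). miR-133a had a deeper minimum, at -5.87 on day 3.

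For miR-365 the assays were miR-1 (0.964), miR-190 (0.952), miR-328 (0.948), miR-99a (0.932) and miR-196b (0.911). The muscle miRNA miR-1 reached -6.20 at day 3 against -3.61 for miR-365, while miR-99a stayed between -2.65 and -0.44. The neighbours were not each other's closest match: with a correlation of 0.836, miR-365 ranked 33rd for miR-193b and miR-193b ranked 18th for miR-365. These ranks moved with the measure, to 9th and 11th by Euclidean distance and to 44th and 39th on the U6 scale. miR-193 ranked 49th for miR-193b, at 0.754. Relative to U6, 2 of the 5 for miR-193b and 3 of the 5 for miR-365 were again in the lists, and by Euclidean distance 3 and 2.

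**Figure D5:**
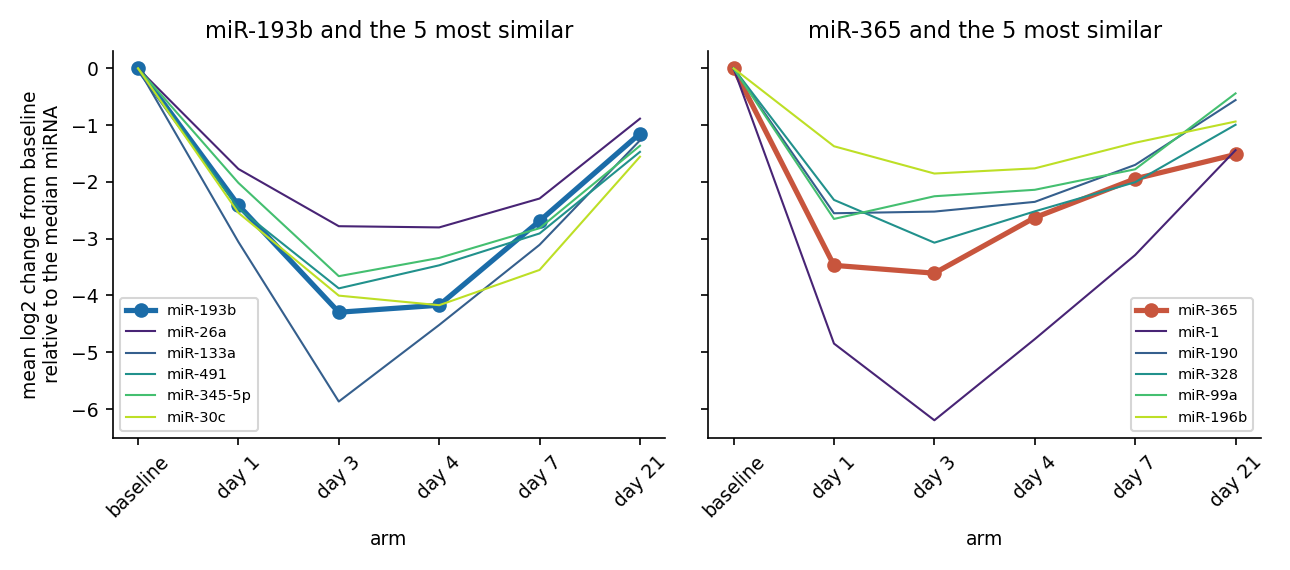
Mean log2 change from baseline relative to the median miRNA (vertical axis) by group for miR-193b (left) and miR-365 (right), each with the 5 miRNAs whose group means correlate most with it. The left lines are lowest at day 3 or 4, and on the right miR-1 is lowest of all, at -6.20 on day 3.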

How the data were processed

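Ct values were deposited by the authors without normalization, from TaqMan assays run for 40 cycles on total RNA with an integrity number above 9, per the labels' protocols. How the threshold was set is not given in the sources used here. All 5 files repeat the same baseline values, which entered once. A miRNA was tested where at least 3 of 4 values were under Ct 35 in both groups, and wells at 40 were left out. All 6 groups entered a single fit in limma 3.58.1 (R 4.3.3), two-sided, with p-values adjusted by Benjamini-Hochberg over all miRNAs tested. The fit was tested on simulated data. Exact permutation tests used scipy 1.17.1. Values of a group differed by medians of 0.11 to 0.57 cycles over 36 pairs, so none was a copy, and the number of values limits the precision. Sequences were matched to RefSeq by name.

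The miRNAs and lists were chosen with earlier results of these data known. Named were the pair, the seed relative, the brown and beige fat and muscle lists, the controls and the 5 assays most like each member. Of the fat list, miR-196a, miR-378 and miR-129 were not analysed here, and of the muscle list miR-206, miR-208 and miR-208b. The assay miR-125b-5p stood for miR-125b. Alternatives covered the normalizer, the Ct limit, the groups fitted, limma-trend, each value left out and the likeness measure.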

Additional observations from a re-analysis of the deposited data

Results flagged for a closer look

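In miR-193b at day 21, 1 of the 4 values stood apart, at a log2 level of -1.32 against the baseline mean on the median-miRNA scale. Its gap to the nearest value was 0.888 of the group's range, where the other values lay close together. In miR-193 at day 3 the highest value, -1.755, had a gap of 0.889 of the range. Chance sets apart about 1 in 20 groups, and leaving out each value in turn kept the change of miR-193b at day 21 between -1.21 and -1.09.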

How the results depend on the processing

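Changes of miR-193b were, relative to U6, -4.32, -5.42 and -4.84 (days 1, 3, 4); relative to snoRNA135, -3.76, -6.07, -5.70, -3.86 and -2.29 (days 1, 3, 4, 7, 21); relative to Y1, 0.32, -2.98, -1.58 and -0.0775 (days 1, 3, 7, 21). They were -2.04 relative to snoRNA202 (day 7) and -3.59, -3.23 and -1.50 on raw Ct (days 3, 4, 7). Those of miR-365 were, on the same days, -5.38, -4.73 and -3.30 relative to U6, -4.82, -5.38, -4.16, -3.12 and -2.66 relative to snoRNA135, and -0.74, -2.29, -0.84 and -0.45 relative to Y1. They were -1.29 relative to snoRNA202 and -2.90, -1.69 and -0.75 on raw Ct. Listed are only changes that differed from the median-miRNA scale by at least the residual SD of the fit or turned in sign. The scales and days left out differed by less. For miR-193b relative to snoRNA202 these were -2.27, -4.00, -3.83 and -1.16 on days 1, 3, 4 and 21. The counts of fat-linked miRNAs given below for other scales are likewise only those that moved most. From day 7 to day 21 raw Ct gave 0.49 for miR-193b, not past the threshold, and -0.61 for miR-365, and snoRNA202 gave -0.24 for miR-365. Of the 18 fat-linked miRNAs, the number higher relative to U6 was 0, 2, 1, 1 and 0 at days 1, 3, 4, 7 and 21 and 6 from day 7 to day 21; relative to snoRNA135 it was 1 at days 1, 3, 4 and 7 and 0 at day 21. Relative to Y1 it was 13, 6 and 10 at days 1, 7 and 21, relative to snoRNA202 6 at day 7 and 6 from day 7 to day 21, and on raw Ct 7 and 9 at days 4 and 7 and 2 from day 7 to day 21. The number lower relative to Y1 was 0, 6, 6 and 0 at days 1, 3, 7 and 21 and 1 from day 7 to day 21. It was 8 at day 7 and 5 from day 7 to day 21 relative to snoRNA202, and 6 and 8 on raw Ct. Relative to U6 it was 4 at day 21 and 1 from day 7 to day 21, and relative to snoRNA135 it was 16 at day 21. Relative to the median miRNA the numbers higher and lower were 5 and 12, 5 and 11, 4 and 12, 3 and 13, 3 and 9, and 11 and 3 in the same order. Leaving out each value in turn moved the number higher at day 21 between 1 and 3, and the rise of miR-193b from day 7 to day 21 between 1.37 and 1.63 (limma adjusted p = 7.41e-05 to 0.000266). It moved that of miR-365 between 0.24 and 0.62, and the shift of the within-value difference from baseline between 0.37 and 0.90 at day 3, 0.58 and 1.00 at day 7, and -0.58 and -0.17 at day 21. By construction a normalizer moves every miRNA of a group by the same amount. Shares of all miRNAs are given above for the median-miRNA and U6 scales only. Other Ct limits, limma-trend and the fit of 2 groups changed no call of miR-193b or miR-365 from day 7 to day 21. No pairing of values between groups was possible because the labels number no replicates.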
